A study of Mus musculus with 3 samples.

Results

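Voltage-gated ion channel genes were examined for Argonaute 2 (Ago2) peaks in N2A cells, a mouse neuroblastoma line. The genes were chosen by symbol alone, as the protein-coding genes of the GENCODE mouse M21 annotation that begin with Kcn, Cacna, Cacnb or Cacng, or that read Scn, a number and a or b. The rule found 134 of 21853 protein-coding genes. It also takes in relatives that are not opened by voltage, such as the inward rectifiers (Kcnj) and the tandem-pore channels (Kcnk), and the auxiliary subunits. The 3 libraries formed 1 group, N2A under basal conditions, with no treatment, genotype or control antibody to compare. Each was made by HITS‐clip, in which ultraviolet light (once at 400 and later at 200 mJ/cm2 here) fixes proteins on the RNA beneath them, Ago2 is pulled down with the antibody clone 2D4, and the RNA fragments that come with it are sequenced. Nothing says whether the samples were separate cultures. The study used these libraries to find the transcripts that miR-21a-5p may target in neuronal cells.

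Voltage-gated channels open a pore for sodium, calcium or potassium when the membrane potential changes. In neurons, sodium channels (Nav) start the action potential, potassium channels (Kv) end it and set the firing rate, and calcium channels (Cav) couple it to transmitter release and gene expression. Each pore-forming alpha subunit works with auxiliary subunits that set its surface level and gating. Ago2 is the protein that holds a microRNA (miRNA) and brings it to matching sites, most often in the 3′ untranslated region (3′UTR) of an mRNA. Neuronal channel mRNAs often have long 3′UTRs, and channel genes often have very long introns.

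The libraries held 711377, 498071 and 829936 peaks in replicates 1, 2 and 3. The deposited table lists intervals and no reads, so depth per library is unknown, and a gene without a peak cannot be told apart from a gene that was hardly transcribed. A peak was given to the transcript part that holds its midpoint on the strand of the gene, and the opposite strand of the same parts served as the measured background. All values are counts of peaks or of genes, given as mean ± SD over the 3 libraries, and no test was made, because there is no second group. Of 15 genes fixed as markers of neuroblasts, 11 had a 3′UTR peak in every library, among them Gata2, Gata3, Hand2, Isl1 and Mycn, and their 3′UTR peaks summed to 75 to 160 per library. The same held for 3 of 6 oligodendrocyte markers (Cnp and Mbp among them, sums of 4 to 13), 1 of 6 astrocyte markers (Slc1a2, sums of 2 to 4) and 1 of 6 microglial markers (Ptprc, sums of 2 to 4). No peak fell in the 3′UTR of any of 8 markers of striated muscle, and 1 peak in 1 library in those of 6 hepatocyte markers. Most of these muscle and hepatocyte 3′UTRs are short (60 nt in Myh6, 64 nt in Apoa1), which limits what their lack of peaks can show. In coding sequence the muscle markers Ttn (19, 10 and 17) and Ryr1 (2, 4 and 3) had peaks in every library, and the other muscle markers did not. The part of other cell types in the results was not tested.

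Few channel genes carried Ago2 in the 3′UTR. In all 3 libraries a same-strand 3′UTR peak was found in 13 of 134 members (9.70%), against 23.3% of all 21022 protein-coding genes with a 3′UTR. On the opposite strand the count was 6 members (4.48%), against 2.45% of all genes. By library, 38, 37 and 46 members had a 3′UTR peak, or 28.4%, 27.6% and 34.3%, where the share over all genes was 33.1%, 42.9% and 46.9%. A peak in at least 1 library was seen in 71 members (53.0%), close to the 58.7% of all genes. Members thus fell further behind where all 3 libraries were required than where 1 sufficed. Exactly 1 library showed a peak in 34 members, 2 in 24 and 3 in 13, and 63 had none. Over all genes 17.8% had a peak in exactly 1 library, 17.6% in 2, 23.3% in 3 and 41.3% in none.

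Sodium and calcium channel genes made up 11 of the 13. As a share of the members of these families that is near the 23.3% of all genes, while the share of potassium channel genes lay far below it. The 11 were 4 of 10 Nav alpha genes (Scn9a, Scn8a, Scn2a and Scn3a), 2 of 10 Cav alpha1 genes (Cacna1c and Cacna1b), 2 of 8 Cav gamma genes (Cacng7 and Cacng4), 1 of 4 Nav beta genes (Scn3b), and the Cav beta gene Cacnb1 and the Cav alpha2delta gene Cacna2d1. Potassium channels, the largest group, gave only 1 of 40 Kv alpha genes and 1 of 17 auxiliary genes (Kcnab2). None of the 15 inward rectifiers, 14 tandem-pore channels or 8 calcium- or sodium-activated potassium channels had a 3′UTR peak in every library. Per 100 kb of 3′UTR, the same-strand density was 69.6 ± 31.6 peaks for Cav gamma, 54.0 ± 4.35 for Nav alpha, 42.9 ± 21.2 for Cav beta, 40.3 ± 21.5 for Cav alpha1, 35.4 ± 17.7 for Nav beta, 33.1 ± 24.2 for the auxiliary potassium channel genes, 16.3 ± 17.6 for the calcium- or sodium-activated, 15.5 for Kv alpha (19 peaks in each library), 14.5 ± 6.29 for Cav alpha2delta, 14.3 ± 7.74 for the tandem-pore channels and 5.87 for inward rectifiers (2 peaks in each). Cacng7 held 2, 9 and 7 of the 4, 11 and 10 Cav gamma peaks. The Nav alpha and Cav gamma values lay above those of Kv alpha and inward rectifiers in all libraries. On the opposite strand Kv alpha had 19, 11 and 13 peaks, inward rectifiers 6, 2 and 0 and tandem-pore channels 2 in each library. These families, the calcium- or sodium-activated genes and Cav alpha2delta were not above the opposite strand in every library. The other families were.

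**Figure D1:**
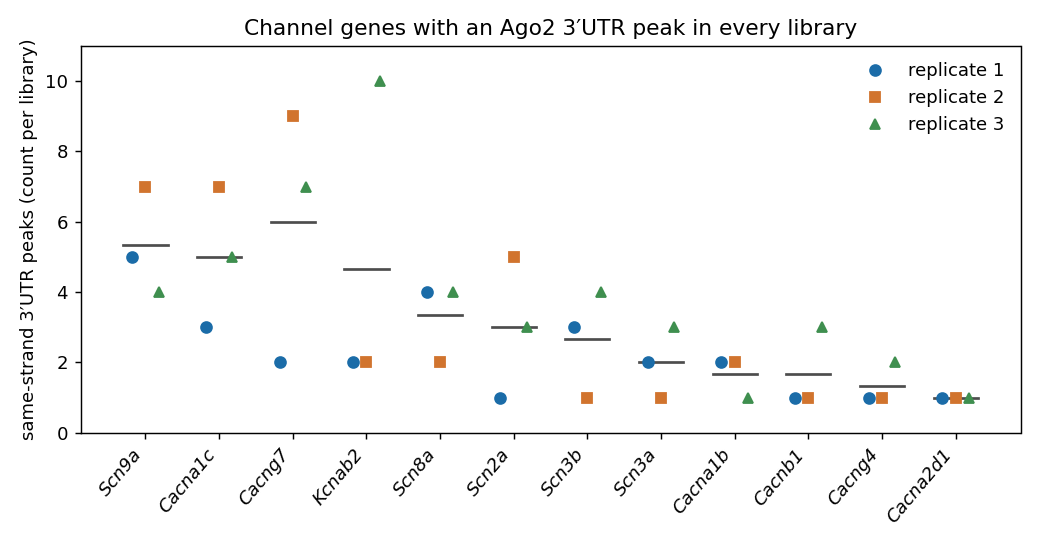
Same-strand 3′UTR peaks (count per library, vertical axis) of 12 channel genes with a peak in all 3 libraries. Each symbol is 1 library and each line the mean. Scn9a has at least 4 peaks in every library, while Kcnab2 has 10 in replicate 3 and 2 in each of the others.

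Scn9a encodes Nav1.7, a sodium channel known from sensory and sympathetic neurons. It lies on the minus strand of chromosome 2 (mm10, chr2:66480080-66634962). By the lowest library it led the list, with 5, 7 and 4 peaks in its 3′UTR of 3338 nt and none on the opposite strand. Its coding sequence held 7, 6 and 7 peaks, against 1 on the opposite strand in each library, and its introns 37, 18 and 22 against 15, 9 and 19. All parts were above the opposite strand in every library. An antisense gene, Gm13629, is annotated across from it. By the mean over libraries Cacng7 had more 3′UTR peaks than Scn9a, 6 against 5.33.

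Scn8a (Nav1.6, the main sodium channel of the mature axon initial segment) had 4, 2 and 4 peaks in the 3′UTR. Scn2a (Nav1.2, its counterpart in developing neurons) had 1, 5 and 3. Scn3a (Nav1.3, an embryonic form) had 2, 1 and 3. None of these had a 3′UTR peak on the opposite strand in any library. By contrast Scn1a (Nav1.1, the channel of fast interneurons) had no 3′UTR peak in any library over 3254 nt, and its introns held 17, 15 and 19 against 17, 5 and 10 on the opposite strand, no more than that background in replicate 1. The auxiliary subunit gene Scn3b had 3, 1 and 4 peaks against 1, 0 and 1 on the opposite strand, and its relative Scn2b 1, 0 and 1 against 0, 0 and 1.

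In the 3′UTR the channels best known from muscle and sensory neurons were nearly empty. Cacna1s and Scn4a, of skeletal muscle, and Scn10a and Scn11a, of nociceptors, had no 3′UTR peak in any library. Their 3′UTRs, of 692, 1072, 469 and 491 nt, are under the members' median, and shorter 3′UTRs were called less often in other genes too. Coding sequence held 2, 2 and 0 peaks in Cacna1s (opposite 1, 1 and 0) and 1, 1 and 0 in Scn4a (opposite 2, 1 and 1). It held 0, 0 and 2 in Scn10a (opposite 1, 0 and 1) and none in Scn11a. Of 24 neuronal channels listed beside them, 7 (29.2%) had a 3′UTR peak in every library, against 23.3% of all genes, and 3 had one on the opposite strand. No 3′UTR peak in any library was seen in 6 of the 24 (Cacna1e, Cacna1h, Kcnd2, Kcnj3, Kcnk2 and Scn1a), where 41.3% of all genes had none.

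Among calcium channels, Cacna1c encodes Cav1.2, the L-type channel that links activity to transcription. It lies on the minus strand of chromosome 6, and its 3′UTR of 6652 nt held 3, 7 and 5 peaks and none on the opposite strand. Cacna1b (Cav2.2, the N-type channel of nerve terminals) had 2, 2 and 1. Cacna1a (Cav2.1, the P/Q-type channel) had 0, 2 and 1, and the T-type genes Cacna1g and Cacna1i had 0, 2 and 0 (opposite 0, 1 and 0) and 0, 3 and 3 (opposite 1, 0 and 0). Cacng7 and Cacng4 encode gamma subunits that also act on AMPA-type glutamate receptors. Cacng7 had 2, 9 and 7 peaks in only 1273 nt, and Cacng4 1, 1 and 2 against 0, 1 and 1 on the opposite strand, no more than that background in replicate 2. Cacnb1, a beta subunit that brings the pore to the membrane, had 1, 1 and 3. Cacna2d1, an extracellular subunit bound by gabapentin, had 1 in each library, with 1, 1 and 0 on the opposite strand, about the same as its own background.

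Among potassium channel genes, Kcnab2, a cytoplasmic beta subunit of Kv1 channels, had 2, 2 and 10 peaks over 2293 nt and none on the opposite strand. In the other potassium families the members that ranked highest were Kcnma1 (BK, 1, 0 and 4 peaks, with 1, 2 and 1 on the opposite strand), Kcnj12 (Kir2.2, 1, 1 and 0), and 2 tandem-pore genes that tied, Kcnk3 (TASK-1, 0, 0 and 4) and Kcnk9 (TASK-3, 0, 2 and 2, with 0, 0 and 2 opposite). Replicate 3 alone held the peaks of Kcnk3.

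Several of these calls rest on transcripts other than the one with the longest coding sequence. In Cacna1c and Cacnb1 that transcript has no annotated 3′UTR. In Cacna1b and Cacna2d1 its 3′UTR, of 195 and 395 nt, held no peak. In Kcnab2 it is 314 nt of 2293 nt and held 0, 0 and 1 peaks. With that transcript alone, 8 of 129 members (6.20%) had a 3′UTR peak in every library, against 21.1% of all genes.

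The lower share of members was also seen at matched length in the longer 3′UTRs. The median 3′UTR was 1786 nt in members and 1012 nt in other protein-coding genes. Over 5 equal classes of 3′UTR length, the members' interval lay below the share of other genes in the 2 longest. In the longest class, from 2550 nt, 9 of 45 members were called (Wilson 95% interval 10.9% to 33.8%) against 52.6% of other genes, and in the class of 1380 to 2549 nt 3 of 37 (8.11%, interval 2.80% to 21.3%) against 32.9%. In the 3 shorter classes the members' interval held the share of other genes. It was 1 of 24 from 724 nt (0.739% to 20.24%, against 20.18%), and 0 of 19 and 0 of 9 below that (up to 16.8% against 9.68%, and up to 29.9% against 1.93%). These intervals treat each gene as a separate draw, cover counting error only and are no test.

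**Figure D2:**
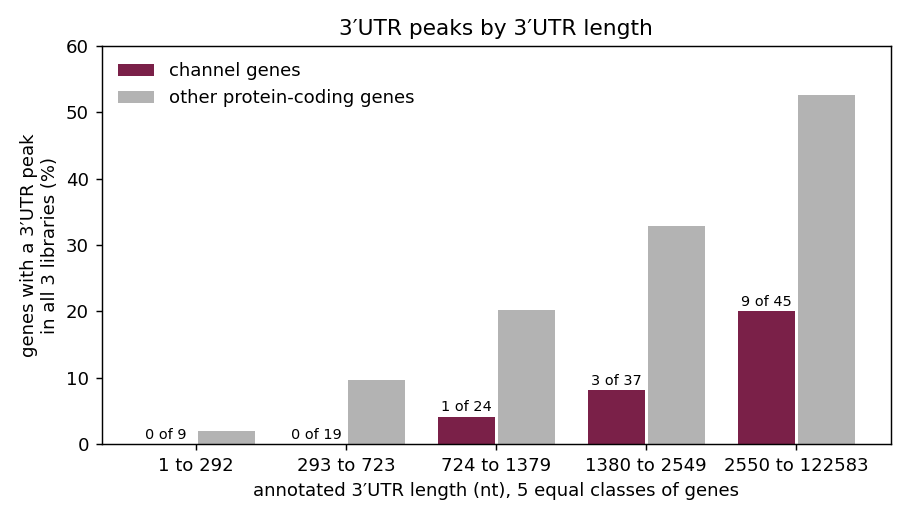
Share of genes with a same-strand 3′UTR peak in all 3 libraries (percent, vertical axis) in 5 equal classes of annotated 3′UTR length (nt, horizontal axis), for channel genes and for other protein-coding genes. Numbers over the bars count the channel genes called of those in the class, with 9 of 45 against 52.6% of other genes in the longest class. In the 3 shortest classes, with 1 of 24, 0 of 19 and 0 of 9, the counts are small.

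Summed over members, the 3′UTRs held 60, 81 and 98 same-strand peaks and 43, 27 and 27 opposite-strand peaks. Per 100 kb this was 24.4 ± 5.83 against 9.91 ± 2.83, a ratio of 2.67 ± 1.15 over libraries. In other genes the same-strand density was 135 ± 69.0 and the ratio 10.6 ± 6.38. On the opposite strand members had 13.2, 8.27 and 8.27 peaks per 100 kb in replicates 1, 2 and 3 and other genes 14.7, 10.6 and 15.1, so that members were lower in each library there too. On the same strand the highest library of members was under the lowest of other genes. Coding sequence of members held 67, 52 and 69 peaks against 50, 29 and 40 opposite (ratio 1.62 ± 0.244, other genes 8.73 ± 4.82).

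**Figure D3:**
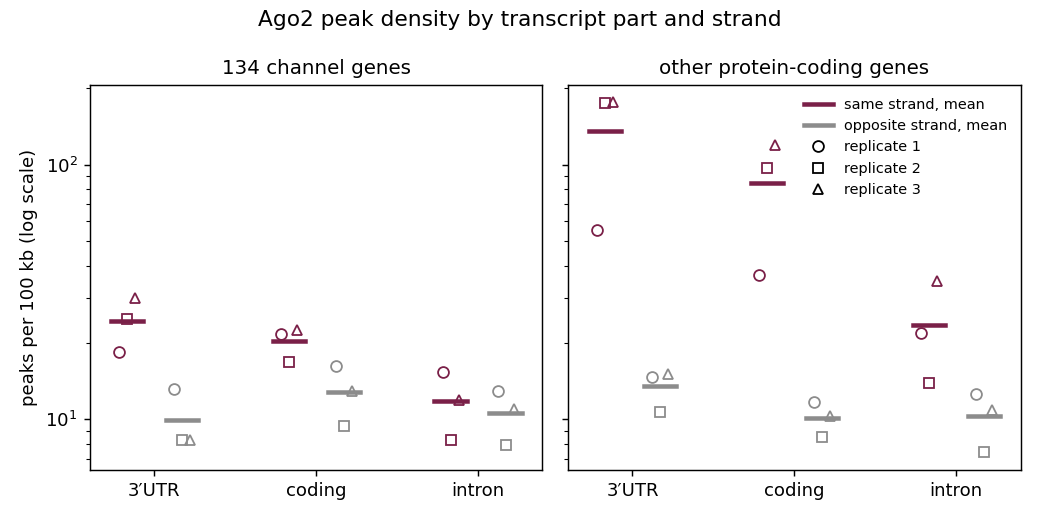
Peaks per 100 kb (vertical axis, log scale) in the 3′UTR, coding sequence and introns of the 134 channel genes (left) and of other protein-coding genes (right), on the gene's own strand and on the opposite one. Symbols are libraries and lines their means. The opposite strand lies between 7.43 and 16.2 in every part and library, and the same strand of channel 3′UTRs averages 24.4 where that of other genes averages 135.

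Peak width moved with this contrast. Of the members' same-strand 3′UTR peaks 49.7 ± 11.5% were 86 to 200 nt wide, against 72.3 ± 11.3% in other genes. Within that width the members' ratio of same to opposite strand was 7.60 ± 3.70, and in peaks of at most 85 nt it was 1.58 ± 0.574. In other genes the ratios were 26.6 ± 14.3 and 3.55 ± 1.61. With only the peaks of 86 to 200 nt, 8 members (5.97%) had a 3′UTR peak in every library, against 17.2% of all genes, and Cacna1b, Cacna2d1, Cacng4, Scn2a and Scn3a left the list.

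Peaks of members were seldom at the same place in different libraries. Of their same-strand 3′UTR peaks 26.7%, 40.7% and 29.6% overlapped a peak of another library, a mean of 32.3 ± 7.43%, where other genes had 73.6 ± 1.15%. On the opposite strand of the members' 3′UTRs it was 26.0 ± 6.37%. Along the 3′UTR the midpoints had a median relative position of 0.476, 0.426 and 0.464 from the stop codon to the end, with no crowding at either end. At least 1 library covered 15.7% of the members' 3′UTR length, at least 2 covered 1.06% and all 3 covered 0.0882%.

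A stretch of at least 8 nt covered in every library was found in the 3′UTR of 4 members (2.99%), against 14.8% of all genes. These genes held 5 such stretches, against 2 on the opposite strand of members, a ratio of 2.5 where other genes had 35.8. How far the 5 are background was not tested. They are the places where a peak was seen in every library. Their sequences (build mm10, read on the strand of the gene, the middle 30 nt where longer) are given here for that reason. Each lies in a 3′UTR exon.
Scn9a, 59 nt, shown chr2:66483052-66483081, minus strand: ccatgtgaatatagaaattcaggcgcacat
Cacng7, 36 nt, shown chr7:3367571-3367600, plus strand: cctcctcttcccatttatcttttcctccct
Scn2b, 82 nt, shown chr9:45128084-45128113, plus strand: cttccacaagagactcagaagggtgagact
Cacna1c, 85 nt, shown chr6:118592534-118592563, minus strand: aaatttaagggaaaaactcaagaagacatt
Cacna1c, 26 nt, shown whole, chr6:118592361-118592386, minus strand: ttaagtttgttttaaaattcacttct

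The Scn9a stretch begins 321 nt into the 3′UTR and the Cacng7 stretch 619 nt. Both rest on intervals of 87 to 107 nt in every library. Those of Cacna1c, at 1300 and 1505 nt, rest in replicate 1 on a single interval of 1110 nt. The Scn2b stretch rests on one of 10229 nt in replicate 2 and one of 405 nt in replicate 3. With peaks of at most 1000 nt alone, Scn9a and Cacng7 were the 2 genes left. With every peak trimmed by 30 nt on each side, Cacna1c and Scn2b kept a stretch and the others did not. No gene had a stretch under both settings. Scn2b has a lincRNA, Gm10684, annotated on the other strand. A and T made up 62.5% of the 5 stretches and 54.2% of what remained of those 3′UTRs, and 64.2% against 57.5% over all genes. The motifs TGTANATA (Pumilio), TATTTA (AU-rich) and AATAAA (polyadenylation) were searched on the strand of the gene and were in 0 of the 5, against 3.98%, 8.23% and 10.98% of stretches of all genes.

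**Figure D4:**
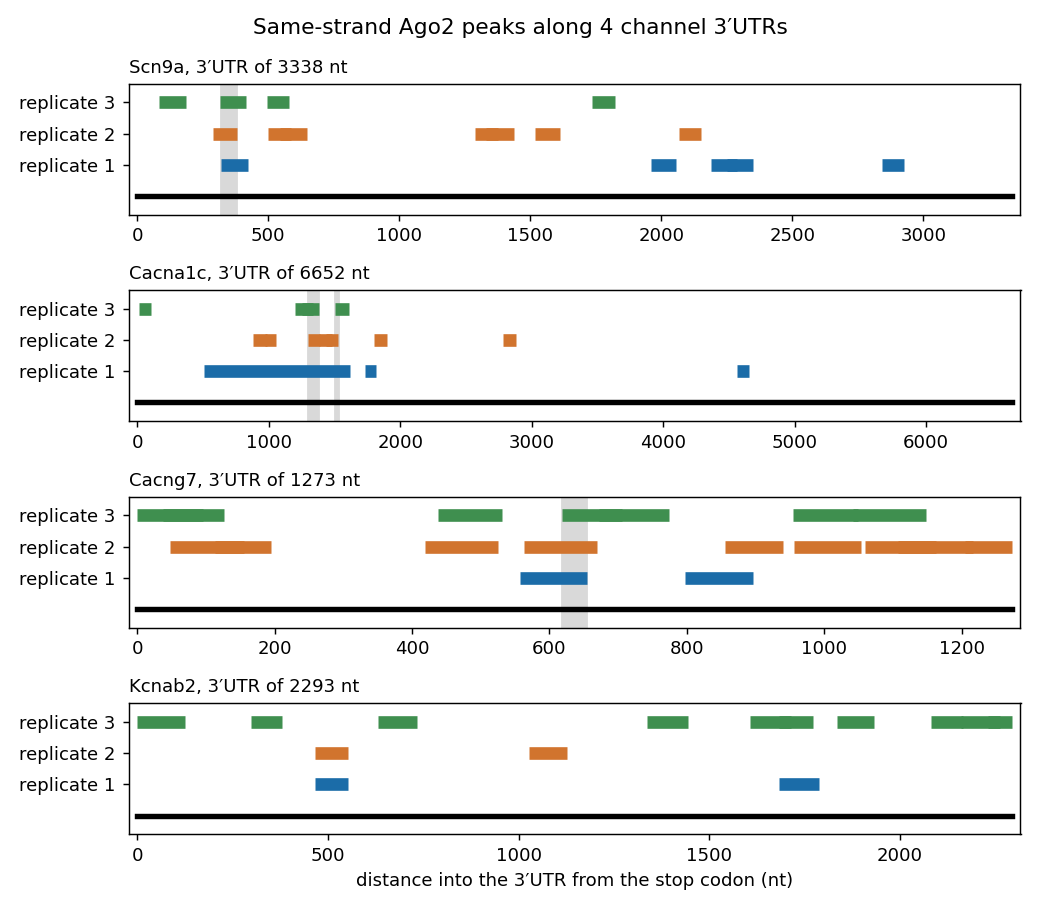
Same-strand peaks along the 3′UTRs of Scn9a, Cacna1c, Cacng7 and Kcnab2 (horizontal axis, nt from the stop codon), with a row of bars for each library. Grey bands mark the stretches covered in every library, at 321 nt in Scn9a, at 1300 and 1505 nt in Cacna1c and at 619 nt in Cacng7, and Kcnab2 has none.

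Sites for miRNAs were sought as matches of 7 nt to seed positions 2 to 8, for 24 listed miRNAs with a RefSeq sequence of 28 listed. The members' 3′UTRs held 734 matches in 112 genes. Of these 122 (16.6%) lay under a peak in at least 1 library, near the 15.7% of the 3′UTR length that was so covered, 9 under peaks of 2 libraries and 0 in all 3. The 5 common stretches are too short for their count of 0 to be read. In stretches covered in at least 2 libraries the density was 2.78 matches per kb against 2.51 elsewhere in those 3′UTRs, a ratio of 1.11, and over all genes it was 2.88 against 2.32, a ratio of 1.24.

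The 9 matches under peaks of 2 libraries were in 8 genes, and 6 of them were 8mers, in which an A follows the match. They are shown because no other listed seed match of a member lay under more than 1 library, with the 7 nt match in capitals.
Cacna1c, miR-155-5p, replicates 1 and 3, chr6:118592591-118592597, minus strand: tgagttgtgtcAGCATTAaaattctattt
Cacna1c, miR-26a-5p, replicates 1 and 2, chr6:118592462-118592468, minus strand: agaaactgttaTACTTGAattcaggtcag
Cacna1g, miR-218-5p, replicates 2 and 3, chr11:94408648-94408654, minus strand: ctcttcttgtaAAGCACAagccgggggcc
Cacna1i, miR-218-5p, replicates 2 and 3, chr15:80397643-80397649, plus strand: gtccatcatcaAAGCACAaatgtctccaa
Cacna1a, miR-27b-3p, replicates 2 and 3, chr8:84640182-84640188, plus strand: gtgggcttgggACTGTGAaatattgcatg
Scn2b, miR-34a-5p, replicates 2 and 3, chr9:45128309-45128315, plus strand: gccaaacaacaCACTGCCaatgggagtgg
Scn2a (7mer), miR-218-5p, replicates 2 and 3, chr2:65766024-65766030, plus strand: gaaaatgatttAAGCACAgtatttactgc
Kcnc1 (7mer), let-7a-5p, replicates 2 and 3, chr7:46429412-46429418, plus strand: aaacccatagtCTACCTCtacccatggaa
Kcnj12 (7mer), miR-132-3p, replicates 1 and 2, chr11:61070816-61070822, plus strand: aacttgggcaaGACTGTTtacaaacaaaa

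The miRNAs themselves, from RefSeq, have these sequences, with the seed, positions 2 to 8, in capitals.
miR-155-5p: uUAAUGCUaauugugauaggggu
miR-26a-5p: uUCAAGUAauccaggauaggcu
miR-218-5p: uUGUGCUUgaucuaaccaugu
miR-27b-3p: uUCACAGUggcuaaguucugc
miR-34a-5p: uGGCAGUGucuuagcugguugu
let-7a-5p: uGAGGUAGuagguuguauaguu
miR-132-3p: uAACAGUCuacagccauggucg
miR-21a-5p: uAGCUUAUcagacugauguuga

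Calcium channel genes hold 5 of the 6 8mers. Narrow intervals of 80 to 97 nt cover both libraries' share of 5 of the 9 sites, those of miR-27b-3p in Cacna1a, miR-218-5p in the T-type gene Cacna1i and in Scn2a, let-7a-5p in Kcnc1 (Kv3.1) and miR-132-3p in Kcnj12. Both sites of Cacna1c rest in replicate 1 on the interval of 1110 nt, that of Cacna1g in replicate 3 on one of 13826 nt, and that of Scn2b on its wide intervals. A match is a sequence and does not show which miRNA was on Ago2.

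For miR-21a-5p, the miRNA the study set out to follow, 18 members had a match, 1 in each. Peaks covered 3 of these, all in replicate 2 alone. That in Cacna1c is an 8mer under an interval of 102 nt, that in Cacnb3 a 7mer under one of 103 nt, and that in Scn2b a 7mer under the interval of 10229 nt.
Cacna1c, chr6:118591074-118591080, minus strand: tgatcaaagatATAAGCTacaagctgagt
Cacnb3, chr15:98643827-98643833, plus strand: cctccccctgcATAAGCTgccgcccccgt
Scn2b, chr9:45128608-45128614, plus strand: gggttgtactaATAAGCTgtctctttttt
No match of miR-21a-5p in a channel 3′UTR was under a peak of more than 1 library.

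In coding sequence, 13 members (9.70%) had a same-strand peak in every library, against 18.6% of all genes, and 4 (2.99%) had one on the opposite strand, against 1.52%. The coding and the 3′UTR list shared 5 genes (Cacna1b, Cacna1c, Cacna2d1, Scn8a and Scn9a), which is 38.5% of each, and 113 members were in neither. The same overlap over all genes is not given here, so these counts do not show whether members differ in it. After Scn9a the coding list was led by Cacna1c with 6, 3 and 4 peaks (opposite 1, 0 and 2), Scn8a with 4, 3 and 3 (opposite 2, 0 and 2), Cacna1b with 3, 2 and 7 (opposite 2, 0 and 1) and Cacna1i with 2, 3 and 1 (opposite 1, 0 and 0). Each of these was above its opposite strand in every library. The others included Cacna1a, Cacna2d1, Cacng8, Kcnh5, Kcnk9, Kcnn2 and Scn7a, and none of these 7 was above its opposite strand in every library. Kcnh5 had 1, 2 and 1 against 2, 0 and 0, and Scn7a 1, 2 and 2 against 2, 0 and 1. With equal peak numbers drawn from each library, the mean of Scn8a fell from 3.33 to 1 ± 1.73 coding peaks. That of Scn9a fell from 6.67 to 5 ± 1.

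Stretches of coding sequence covered in every library were found in 3 members (2.24%), against 9.74% of all genes, or 9.71 stretches per Mb of coding sequence against 120 in other genes. The opposite strand of members held 1 against these 3, a ratio of 3 where other genes had 34.7. The 3 same-strand stretches lay in Scn9a (61 nt, opposite Gm13629), Kcnk9 (83 nt) and Cacng8 (84 nt). They are shown, by their middle 30 nt, as the coding places seen in every library, all under intervals of 83 to 108 nt.
Scn9a, chr2:66526941-66526970, minus strand: agagggatcaattatgtgaaacagaccctg
Kcnk9, chr15:72512357-72512386, minus strand: tgatgatgtcgtcgataatgttgttgttac
Cacng8, chr7:3415119-3415148, plus strand: gcccagttaccgcttccgctaccgccgccg
The Cacng8 stretch overlaps Gm23450, a gene annotated as a miRNA on the same strand, so its peak cannot be given to the channel mRNA alone. It was the only annotated small RNA inside a member that had a peak in every library.

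Introns held most of the peaks of channel genes, 91.9 ± 2.49% of them, against 73.6 ± 14.2% in other genes. Of 129 members with an intron, 85 (65.9%) had a same-strand intron peak in every library, where all genes had 57.7%. The opposite strand gave nearly the same count, 86 members (66.7%), against 48.6% of all genes. Same-strand intron peaks numbered 2388, 1297 and 1856, and opposite-strand peaks 2020, 1240 and 1716. Per 100 kb this was 11.8 ± 3.50 against 10.6 ± 2.52, a ratio of 1.10 ± 0.0706, and in other genes the ratio was 2.27 ± 0.817. The median intron length was 42583 nt in members and 15788 nt in other genes. Of 68 members with at least 3 intron peaks in every library, 18 (26.5%) had more on the same strand in all libraries, against 62.6% of other genes, and 6 (8.82%) had more on the opposite strand, against 2.79%.

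By family the ratio of same to opposite strand in introns was 1.74 ± 0.258 for Cav gamma, 1.56 ± 0.107 for Cav alpha1, 1.41 ± 0.260 for Nav alpha, 1.11 ± 0.113 for Kv alpha and 0.490 ± 0.0317 for inward rectifiers. Nav beta, with few intron peaks, had 3, 0.375 and 1.5 in replicates 1, 2 and 3 (1.63 ± 1.32). The other 5 families had means between 0.954 ± 0.273 (auxiliary potassium channel genes) and 1.12 ± 0.266 (tandem-pore channels). A few genes held much of each sum. Without Kcnj6 the inward rectifiers had 0.741, 1.23 and 0.683 in replicates 1, 2 and 3 (0.884 ± 0.298), without Cacna1c the Cav alpha1 genes had 0.828, 1.22 and 1.19 (1.08 ± 0.218), and without Kcnq5 the Kv alpha genes had 0.957 ± 0.0634, and none of these 3 was on one side of 1 in every library. Without Cacng7 the Cav gamma ratio was 1.64 ± 0.291. Cacna1c alone held 274, 131 and 130 same-strand intron peaks, or 11.5%, 10.1% and 7.004% of all those of members, and 85, 53 and 57 opposite. Kcnq5 (Kv7.5, an M-current subunit) held 160, 54 and 163 against 66, 36 and 61. In both genes the same strand was higher in every library. The density per 100 kb of intron was also highest in Cacna1c, followed by Cacng7, Cacnb1, Kcnj1 and Scn8a, by the lowest library. Of these Scn8a had 43, 27 and 48 peaks against 24, 11 and 14, while Kcnj1, a renal potassium channel, had 4, 4 and 5 against 4, 3 and 3 and Cacnb1 had 3 in each library against 3, 2 and 3, both little above background.

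Kcnj6 ran the other way. It encodes GIRK2, the potassium channel that many neurotransmitter receptors open through G proteins. Its introns held 33, 21 and 27 same-strand and 88, 98 and 78 opposite-strand peaks. The opposite-strand peaks were crowded between 50 and 150 kb from the start of the gene, with 42, 50 and 28 in the first 50 kb of that span, against 7, 5 and 7 on the same strand, and 20, 25 and 33 in the rest. An antisense gene, Gm41505, and a miRNA gene, Gm22745, are annotated on that strand, and they overlap 4238 nt of the Kcnj6 introns, in which only 3, 0 and 1 of the opposite-strand peaks lay. Among smaller cases, the 2, 9 and 19 opposite-strand peaks of Kcnj13 lay in Gigyf2, a gene that spans it, and of the 63, 23 and 42 of Kcnq1 (Kv7.1) 48, 11 and 33 lay in annotated opposite-strand genes, Kcnq1ot1 among them.

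In Cacna1c the same-strand peaks numbered 6, 6 and 5 in the first 50 kb, 46, 18 and 16 between 150 and 200 kb, 57, 16 and 21 between 200 and 250 kb, and 32, 19 and 9 between 250 and 300 kb. The first 350 kb of its 609 kb held 72.3%, 71.0% and 65.4% of them, against 57.6%, 50.9% and 54.4% of the opposite-strand peaks. The same strand was higher in every library in 9 of 13 windows of 50 kb. In its introns 3 stretches were covered in every library. Over all members there were 29 such intron stretches in 21 of 129 genes (16.3%, against 15.9% of all genes), with 4 in Cacna2d3, a calcium channel alpha2delta gene. On the opposite strand there were 23, of which 7 lay in Kcnj6. The ratio of 1.26 was below that of other genes, 4.50, with 7955 stretches against 1766. Without Cacna1c, Kcnj6 and Kcnq5, the members' ratio of same to opposite strand was 1.04 ± 0.0344. Annotated genes on the opposite strand overlapped 5.81% of the members' intron length and held 7.43%, 6.61% and 8.57% of the opposite-strand intron peaks.

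**Figure D5:**
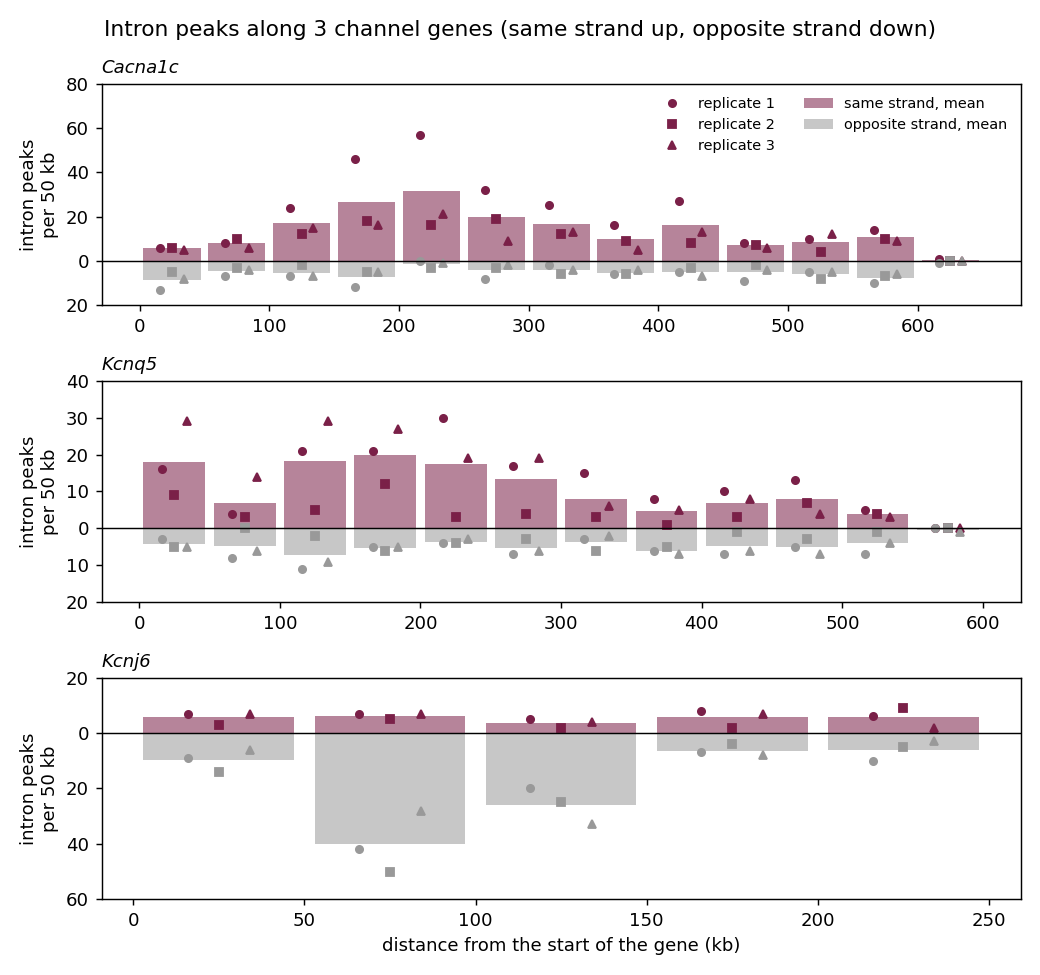
Intron peaks per window of 50 kb (vertical axis, same strand up and opposite strand down) by distance from the start of Cacna1c, Kcnq5 and Kcnj6 (kb). Bars are means and symbols libraries, and the last window of each gene is only partly filled. Same-strand peaks of Cacna1c number 57, 16 and 21 between 200 and 250 kb, and opposite-strand peaks of Kcnj6 42, 50 and 28 between 50 and 100 kb and 20, 25 and 33 between 100 and 150 kb.

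Repeat-masked sequence held no more of the intron peaks than its share of the length. It made up 25.02% of the members' introns and held the midpoints of 19.0% to 21.1% of the same-strand peaks and 21.3% to 23.0% of the opposite-strand peaks. In the 3′UTR it made up 13.998% of the length and held 26.7%, 14.8% and 21.4% of the same-strand peaks, more than its share of the length in every library, and 13.95%, 7.41% and 14.8% of the opposite-strand peaks. The part of repeats in the 3′UTR calls was not tested. Within 5 kb past the annotated ends, members had 75, 57 and 59 same-strand and 62, 41 and 55 opposite-strand peaks. There 12 members (8.96%) had a same-strand peak in every library, near the 8.34% of other genes. On the opposite strand 7 members (5.22%) had one, against 4.63% of other genes.

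Related channels and channel partners outside the symbol rule stood near the share of all genes. Of 37 listed, 9 (24.3%) had a 3′UTR peak in every library. They included Ank3 and Sptbn4, scaffolds that hold sodium channels at the axon initial segment, and Ank2, a relative of Ank3. Also among the 9 were the calcium sensor Calm3, the calcium channel inhibitor Gem, the endolysosomal channel Tpcn1 and the sodium leak channel subunit Unc80. Rest, the repressor that keeps many neuronal channel genes silent, was among them too. Rest had 8, 14 and 11 3′UTR peaks, in each library more than any channel gene. Gem had 1, 5 and 7 and Ank3 1, 5 and 4. On the opposite strand 3 of the 37 had a peak in every library. None of Catsper1 to Catsper4, the sperm calcium channel genes, had a 3′UTR peak in any library.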

How the data were processed

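Ago2 HITS‐clip peaks of 3 N2A libraries were analysed. The authors called peaks in each sample and deposited 1 table of intervals with strand, sample and a score. The deposited score has no stated unit, was 60 for 98.9% to 99.6% of peaks and was not used. FastQC, cutadapt, STAR and the build mm10 are named in the submitters' processing notes, without versions. The peak caller and its threshold are not given in the sources used here. Starts were read as counted from 0. Further per-sample columns numbered 0. Read depth is unknown, and counts of peaks stand in for no level of RNA.

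Peaks on the 21 primary chromosomes were assigned by midpoint to 3′UTR, coding sequence, 5′UTR or intron, in that order, over all protein-coding transcripts of GENCODE M21. A common stretch was at least 8 nt covered in all 3 libraries. Seeds came from RefSeq and were matched to GRCm38.p6, 4 listed miRNAs having no sequence in the table used. Counting was tested on simulated data. Work was done in Python 3.11.15 with pandas 2.3.3, numpy 2.4.6, pysam 0.24.0, scipy 1.17.1 and matplotlib 3.10.9. Genes were named by rank of the lowest library (the first 10 for 3′UTR, the first of each family, the first 5 for coding peaks and for intron density), from lists of 24 neuronal and 5 muscle or sensory channels, and where a seed matched. Others, Kcnj6 and Kcnq5 among them, were named after their values were seen. Members, lists of markers and of 37 partners, and rules were chosen with earlier results of these data known.

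Alternatives were overlap in place of midpoint, peak width, equal peak numbers, order of parts, 1 transcript a gene, second genes, trimmed peaks, the number of libraries and each replicate left out. Leaving out Cacna1c, Kcnj6 and Kcnq5 together, and each of these or Cacng7 from its own family, was added after seeing the data. Some genes of these lists are not reported here.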

Additional observations from a re-analysis of the deposited data

How the results depend on the processing

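No paired analysis was possible because there was no second group. Of 98 values of 14 summary results under other settings, 72 stayed within 1.5 times a count, 1 SD of a mean or, for the seed density ratio, its counting interval (0 to 4.99), and the other 26 follow. Members with a 3′UTR peak in every library numbered 13, and 8 with peaks of 86 to 200 nt, 8 with the longest coding transcript alone, 37 where 2 libraries sufficed, and 17 to 23 with each replicate left out, the original 13 among them. Members with a coding peak in every library numbered 13, and 29 by any overlap, 5 with peaks of 86 to 200 nt, 30 where 2 libraries sufficed, and 17 to 21 with each replicate left out. For introns 85 became 45 with peaks of 86 to 200 nt. The 4 members with a common 3′UTR stretch became 2 with trimmed peaks, with peaks of 86 to 200 nt, with peaks of at most 1000 nt and with equal peak numbers, and 9 to 15 with each replicate left out. Peaks of 86 to 200 nt alone also moved the mean number of peaks per library to 41 (3′UTR), 21 (coding) and 417 (intron), the ratio of same to opposite strand to 7.60, 9.64 and 1.47, and the share of the members' peaks to 10.1%, 5.05% and 84.5%. The cause of these changes was not tested. The seed density ratio was 0, and 0.415 with positions 2 to 7 and 1.11 with stretches of 2 libraries. Of 156 values for single genes, 23 moved by more than 1 SD. Leaving out Kcnj6, Cacna1c, Kcnq5 or Cacng7, a choice made after seeing the data, moved the intron ratio of the first 3 genes' families by more than 1 SD. Read depth, unknown here, limits every absence of a peak.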

Other observations

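Opposite-strand 3′UTR peaks in every library were found in Kcnb2, Kcnc1, Kcnh7, Kcnip3, Kcnma1 and Kcnq3, none of which had same-strand peaks in every library. Kcnc1 had 2, 1 and 4 on the opposite strand and 0, 1 and 1 on its own, and Kcnip3 had 1, 2 and 2 against none. Past the annotated end, within 5 kb, same-strand peaks in every library were seen for Cacna1c, Cacng4, Cacng8, Kcna3, Kcna5, Kcnip4, Kcnj3, Kcnk12, Kcnmb1, Kcnq3, Kcnv1 and Scn8a. Of these only Cacng8, Kcna3, Kcna5, Kcnip4 and Kcnmb1 were above the opposite strand in every library.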
